A study of Mus musculus with 7 samples.

Results

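Fasting and low insulin switch on a small programme of genes that spares glucose, releases and burns fat and restrains growth. Described here are 10 such genes in brown adipose tissue of NOD/ShiLtJ mice, a strain with autoimmune diabetes. They were taken from the deposited gene table by symbol: Txnip, Pdk4, Angptl4, Irs2, Klf15, Ddit4, Sesn1, Sesn3, Cdkn1a and Fbxo32. The table held 55487 distinct genes. Each of the 10 was found once and each was among the 16823 genes left after a filter on low counts. RNA sequencing compared 4 mice given CB-100 with 3 mice given sham injections of KRBH buffer. CB-100 is the part above 100 kDa of a buffer in which brown adipocytes had been kept, named imBAT conditioned buffer in the labels. Mice whose blood glucose lay between 190 and 230 mg/dL received it under the skin for 7 days at 1.5 mg per kg of body weight. The labels repeat this injection text for the sham samples and give them no schedule of their own. Brown fat was collected 2 to 8 weeks after injection, with no week, age or feeding state given for any mouse. CB-100 titles all contain nd and sham titles all contain d, codes that the labels do not explain, so the injection and whatever they mark cannot be told apart.

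Insulin acts through the kinase AKT, which keeps FOXO transcription factors out of the nucleus. When insulin is low, FOXO factors enter the nucleus and raise genes such as Irs2, Sesn1, Sesn3, Cdkn1a, Fbxo32, Pdk4 and Txnip. Fatty acids released in fasting activate PPAR receptors, which raise Pdk4 and Angptl4, and glucocorticoids raise Ddit4, Klf15, Pdk4 and Angptl4. Txnip is raised by glucose through MondoA and ChREBP as well, Cdkn1a and Sesn1 by p53, and Ddit4 by hypoxia and stress. In brown fat, a depot that takes up glucose and burns fat for heat, these genes bear on the choice of fuel.

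The promoters of Txnip, Irs2 and Cdkn1a are shown as examples of letter matches to motifs of FOXO, glucocorticoid receptor, ChREBP and p53 before the transcript start. RefSeq windows on GRCm38.p6, from 250 bases before to 50 bases after a transcript start, were listed for 8 of the 10 genes (10 windows) and not for Angptl4 or Fbxo32. All run 5′ to 3′ on the gene's strand. Capitals mark matches to the motifs of these regulators and to the E-box, and the general promoter motif CCAAT is left in lower case. The Txnip window is chr3:96557707-96558006 (plus strand), the Irs2 window chr8:11008880-11009179 (minus strand) and the window of the upstream Cdkn1a start chr17:29090729-29091028 (plus strand).
Txnip: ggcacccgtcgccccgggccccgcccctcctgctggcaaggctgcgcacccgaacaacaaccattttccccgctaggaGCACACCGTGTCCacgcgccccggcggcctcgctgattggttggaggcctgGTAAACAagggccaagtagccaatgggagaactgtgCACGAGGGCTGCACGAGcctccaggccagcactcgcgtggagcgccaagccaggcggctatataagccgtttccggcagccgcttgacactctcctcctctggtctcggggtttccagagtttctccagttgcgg
Irs2: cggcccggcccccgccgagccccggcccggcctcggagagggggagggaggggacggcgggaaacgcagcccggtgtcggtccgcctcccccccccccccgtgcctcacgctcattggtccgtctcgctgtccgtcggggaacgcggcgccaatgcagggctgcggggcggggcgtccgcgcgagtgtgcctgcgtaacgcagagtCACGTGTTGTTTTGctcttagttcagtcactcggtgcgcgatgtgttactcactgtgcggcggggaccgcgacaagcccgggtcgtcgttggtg
Cdkn1a: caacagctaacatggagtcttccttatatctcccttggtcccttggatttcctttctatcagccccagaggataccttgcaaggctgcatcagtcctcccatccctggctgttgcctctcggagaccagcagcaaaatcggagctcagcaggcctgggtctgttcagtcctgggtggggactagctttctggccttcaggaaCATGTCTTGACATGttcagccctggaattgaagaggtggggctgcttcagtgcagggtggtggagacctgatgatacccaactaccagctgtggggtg

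Motifs were searched on both strands in 32851 promoter windows. Positions count from the transcript start. The Txnip window held 3 matches in capitals that do not overlap each other. At -172 it held a glucocorticoid response type match (GNACANNNTGTNC, in 0.475% of windows). At -121 it held the FOXO core GTAAACA, present in 3.65% of windows. At -85 it held a match to the paired carbohydrate response type, the kind that ChREBP and MondoA bind (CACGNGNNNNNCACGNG, in 0.0487% of windows, 16 in all). The Irs2 window held the insulin response type FOXO motif CAAAACAA on the opposite strand at -38 (in 2.51% of windows), directly after the E-box CACGTG at -44 (in 7.15% of windows). The upstream Cdkn1a window held a p53-type palindrome (CATGNNNNNNCATG, in 0.712% of windows) at -48. Of the other windows, Sesn1 held the FOXO core on the opposite strand at 23 bases past its first start, and Klf15 held 3 E-boxes. The PPAR motif AGGTCANAGGTCA, in 0.0396% of windows, was in none of the 10. CCAAT, in 37.4% of windows, was in 8 of the 10, at -137 and -102 in Txnip and at -137 and -101 in Irs2, and TATAAA, in 13.6% of windows, was in none. A match describes letters in the window, and factor binding was not measured.

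Libraries held 10815101 to 28528471 counts. By Xist and Y-linked counts, replicate 3 of each group was male and the other libraries were female. Brown fat markers were present: Ucp1, the uncoupling protein of heat production, averaged 1402 ± 791 in CB-100 (SD, n = 4), against 354 ± 454 in sham (SD, n = 3), in CPM, the count scaled to library size by TMM. Cidea, a lipid droplet protein, averaged 499.5 CPM in CB-100, against 589 CPM in sham. Both were named after their values were seen, as a check of the labelled tissue. Skeletal muscle markers were present in each library too. CB-100 replicate 4 had the lowest TMM factor, 0.755, and the highest share of mitochondrially encoded counts, 36.3%, against 22.3% to 25.3% in the other CB-100 libraries and 14.3% to 22.8% in sham.

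CB-100 brown fat held 2.64-fold less Txnip RNA than sham brown fat, and Txnip was the 1 gene of the 10 to pass the test. Its log2 change (CB-100 minus sham) was -1.40 (SE 0.26), with a 95% interval of -1.98 to -0.82. The Benjamini-Hochberg adjusted p over all genes tested was 0.033 by edgeR's quasi-likelihood test. The count of 1 lower and 0 higher of 10 stands beside 2.28% lower and 1.42% higher over all genes. With a threshold of 0.05, 3.7% of genes passed in either direction. Estimates were below 0 for 9 of the 10 genes, which 47.3% of all genes showed, and the median log2 change was -0.71 against 0.03 over all genes tested. At an unadjusted p below 0.05, 6 of the 10 were lower, which 12.2% of all genes were. That count was 2 without CB-100 replicate 1 and without CB-100 replicate 4, 3 without sham replicate 3, in females only and with limma voom with quality weights, and 4 to 6 in the other alternatives. The median was -0.24 without sham replicate 1. In bulk tissue, fewer cells of a type and less RNA per cell cannot be told apart.

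**Figure D1:**
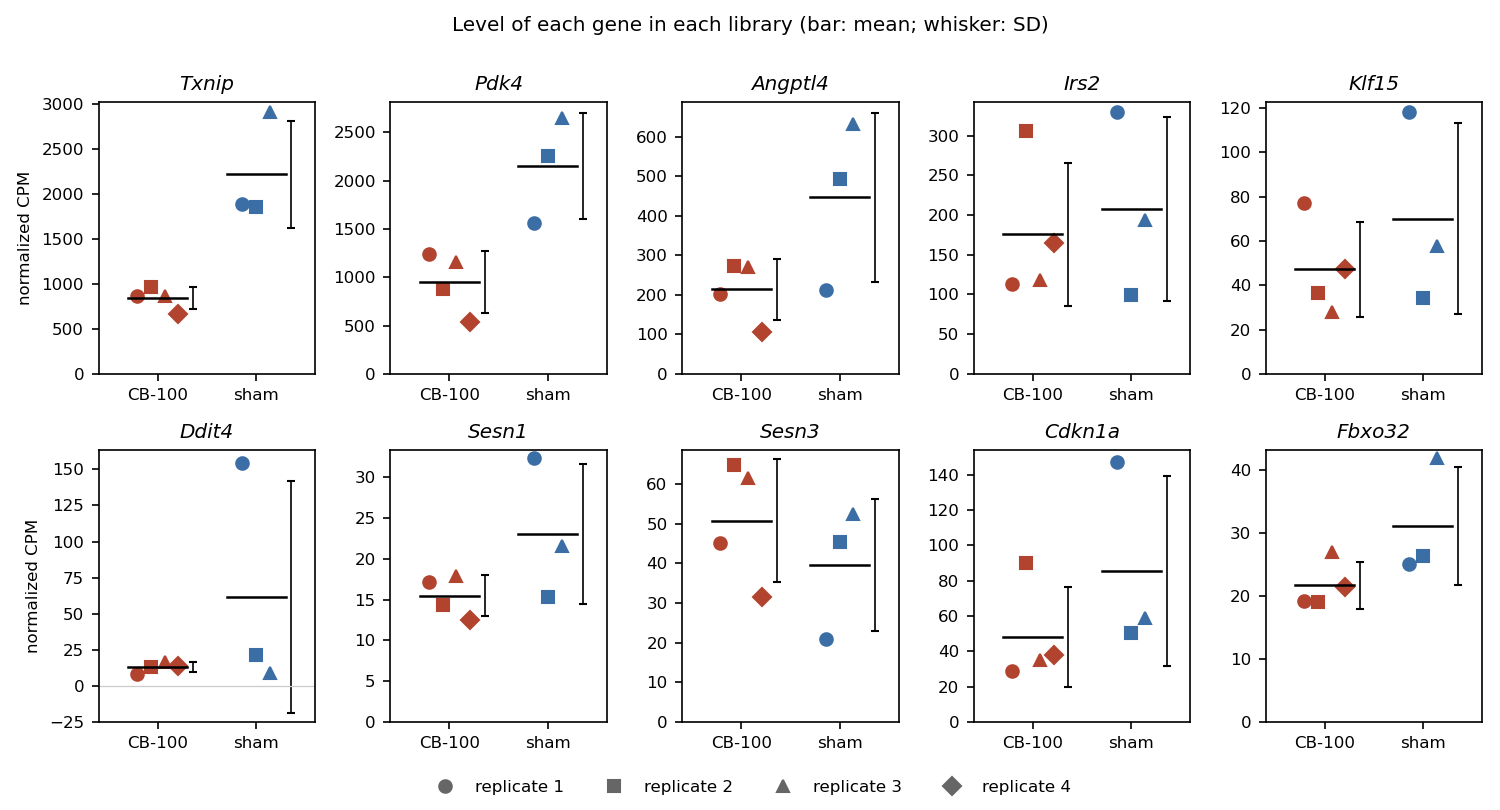
Normalized CPM of each gene in the 4 CB-100 libraries (red) and the 3 sham libraries (blue), with a marker shape for each replicate, the mean as a bar and the SD as a whisker. Txnip and Pdk4 show no overlap between the groups, and sham replicate 1 is the high point for Irs2, Klf15, Ddit4, Sesn1 and Cdkn1a.

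Txnip encodes an arrestin-like protein that binds thioredoxin and takes glucose transporters off the cell surface. The gene lies at chromosome 3, 96557957 to 96561883, on the plus strand of GRCm38. Its levels were 861, 967, 860 and 669 CPM in CB-100 replicates 1 to 4, against 1885, 1859 and 2908 CPM in sham replicates 1 to 3. The CB-100 libraries lay within a narrow band, and the lowest sham library was above the highest CB-100 library by a wide gap. CB-100 averaged 840 ± 124 CPM (SD, n = 4), against 2217 ± 599 CPM (SD, n = 3) for sham. The promoter shown above belongs to this gene.

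An antisense gene, Gm15441, overlaps Txnip exons on the opposite strand, and Txnip counts are non-whole in all 7 libraries, so its count is uncertain. Gm15441 was looked at after the Txnip values were seen. It averaged 1.79 ± 0.55 CPM in CB-100 (SD, n = 4), against 5.26 ± 0.91 CPM in sham (SD, n = 3). Its log2 change was -1.56 (SE 0.30) and it passed, with an adjusted p of 0.035 in edgeR. Its counts came to at most 0.339% of those of Txnip in any library, and without stated strand the reads of the 2 genes cannot be told apart.

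The Txnip estimate stayed between -1.52 and -1.16 in the 16 alternatives run, but the call did not hold in each. The call was kept without CB-100 replicate 4 and without sham replicate 2. It was lost without CB-100 replicate 1, 2 or 3 (log2 change -1.41, -1.47 and -1.41), without sham replicate 1 (-1.51) and without sham replicate 3 (-1.16). It was also lost in females only, with sex as covariate and with a skeletal muscle score as covariate. Over the 7 omissions the edgeR adjusted p was 0.038 to 0.13.

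Pdk4 encodes the pyruvate dehydrogenase kinase that shuts off glucose oxidation in fasting. Pdk4 lies on chromosome 6, 5483351 to 5496309, minus strand. Its levels were 1240, 882, 1160 and 534 CPM in CB-100 replicates 1 to 4 and 1557, 2258 and 2645 CPM in sham replicates 1 to 3. Each CB-100 library lay below each sham library, although CB-100 replicate 1 was 2.32 times CB-100 replicate 4. CB-100 averaged 954 ± 319 CPM (SD, n = 4), against 2154 ± 552 CPM (SD, n = 3) for sham. The log2 change of -1.17 (SE 0.33, 95% interval -1.93 to -0.42) did not pass the test, with an adjusted p of 0.078 in edgeR. DESeq2 (adjusted p = 0.0046), limma voom with library quality weights (0.046) and edgeR without a filter on low counts (0.024) called it, and over all 16 alternatives its adjusted p was 0.0046 to 0.30. Of all genes tested, DESeq2 called 11.7%, limma voom 6.84% and edgeR without the filter 2.87%, in either direction. Txnip and Pdk4 were the 2 of 10 genes whose groups did not overlap, both lower in CB-100, beside 23.3% of all genes in either direction and 12.2% in this one.

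Angptl4 encodes a secreted inhibitor of lipoprotein lipase, the enzyme that lets tissues take up fat from the blood. Angptl4 lies on chromosome 17, 33773750 to 33781830, minus strand. Its levels were 203, 273, 271 and 107 CPM in CB-100, against 213, 493 and 631 CPM in sham. Sham replicates 2 and 3 were above all CB-100 libraries, while sham replicate 1 lay among them. Angptl4 averaged 213 ± 78.1 CPM in CB-100 (SD, n = 4), against 446 ± 213 in sham (SD, n = 3). The log2 change of -1.06 (SE 0.41) did not pass (adjusted p = 0.16 in edgeR), with an interval of -2.01 to -0.12. Without sham replicate 1 it was -1.41, and without sham replicate 3 it was -0.74.

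Irs2 encodes an adaptor that carries the signal from the insulin receptor, and insulin itself lowers its transcription. Irs2 lies on chromosome 8, 10984681 to 11008458, minus strand. Its levels were 113, 306, 118 and 165 CPM in CB-100, against 330, 98.7 and 194 CPM in sham. The lowest and the highest library were both sham libraries, so the groups overlapped fully. Irs2 averaged 176 ± 90.1 CPM in CB-100 (SD, n = 4), against 208 ± 116 in sham (SD, n = 3). The log2 change was -0.24 (SE 0.46, 95% interval -1.29 to 0.81, adjusted p = 0.79 in edgeR), and it turned to 0.25 without sham replicate 1. An opposite noncoding gene model, 9530052E02Rik, overlaps it but held at most 0.252% of its counts.

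Klf15 encodes a zinc finger transcription factor of fasting that acts on amino acid breakdown. Klf15 lies on chromosome 6, 90462576 to 90475238, plus strand. Its levels were 77.1, 36.4, 27.8 and 47.3 CPM in CB-100, against 118, 34.4 and 57.7 CPM in sham. Sham replicate 1 was the highest library and sham replicate 2 was among the low ones. Klf15 averaged 47.1 ± 21.5 CPM in CB-100 (SD, n = 4), against 70.0 ± 43.2 in sham (SD, n = 3). The log2 change was -0.57 (SE 0.46, adjusted p = 0.48 by edgeR) and 0.030 without sham replicate 1.

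Ddit4, also called REDD1, encodes an inhibitor of the growth kinase mTORC1 that stress and glucocorticoids raise. Ddit4 lies on chromosome 10, 59949669 to 59951834, minus strand. Its levels were 8.51, 12.8, 16.8 and 13.9 CPM in CB-100, against 155, 21.2 and 8.98 CPM in sham. Sham replicate 1 alone stood far above the rest, and sham replicate 3 lay within the CB-100 range. Ddit4 averaged 13.01 ± 3.45 CPM in CB-100 (SD, n = 4), against 61.6 ± 80.7 in sham (SD, n = 3). Ddit4 had the lowest estimate of the 10, a log2 change of -2.24 (SE 0.83) that did not pass (adjusted p = 0.15 in edgeR). Without sham replicate 1 the estimate was -0.22.

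Sesn1 and Sesn3 encode sestrins, stress-induced proteins that restrain mTORC1. Sesn1 lies on chromosome 10, 41809935 to 41908424, plus strand. Sesn1 levels were 17.2, 14.3, 17.9 and 12.5 CPM in CB-100, against 32.3, 15.3 and 21.5 CPM in sham. Sham replicates 1 and 3 were above each CB-100 library and sham replicate 2 was not. Sesn1 averaged 15.5 ± 2.51 CPM in CB-100 (SD, n = 4), against 23.1 ± 8.61 in sham (SD, n = 3). The log2 change was -0.58 (SE 0.25) and did not pass, with an adjusted p of 0.20 in edgeR. It was -0.26 without sham replicate 1.

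Sesn3 was the 1 gene with an estimate above 0. Sesn3 lies on chromosome 9, 14275067 to 14333101, plus strand. Its levels were 45.1, 64.9, 61.6 and 31.6 CPM in CB-100, against 20.8, 45.4 and 52.5 CPM in sham. The groups overlapped, and the library lowest in Sesn3 was sham replicate 1, the one highest in Sesn1. Sesn3 averaged 50.8 ± 15.5 CPM in CB-100 (SD, n = 4), against 39.6 ± 16.6 in sham (SD, n = 3). The log2 change was 0.36 (SE 0.35, adjusted p = 0.56 by edgeR), and 0.04 without sham replicate 1.

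Cdkn1a encodes p21, an inhibitor of cyclin-dependent kinases that p53 and FOXO factors raise. Cdkn1a lies on chromosome 17, 29090976 to 29100727, plus strand. Its levels were 28.98, 90.1, 35.2 and 37.9 CPM in CB-100, against 147, 50.6 and 58.8 CPM in sham. CB-100 replicate 2 stood above its group and above sham replicates 2 and 3, and the other CB-100 libraries were below each sham library. Cdkn1a averaged 48.1 ± 28.3 CPM in CB-100 (SD, n = 4), against 85.5 ± 53.6 in sham (SD, n = 3). The log2 change was -0.84 (SE 0.49, adjusted p = 0.34 by edgeR). It was -0.20 without sham replicate 1 and -1.33 without CB-100 replicate 2. An opposite gene model, AC167363.2, overlaps its exons and held up to 13.3% of the Cdkn1a count, so the Cdkn1a count is uncertain.

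Fbxo32 encodes atrogin-1, a ubiquitin ligase subunit best known from wasting muscle. Fbxo32 lies on chromosome 15, 58175879 to 58214932, minus strand. Its levels were 19.2, 19.0, 27.0 and 21.4 CPM in CB-100, against 25.04, 26.2 and 41.9 CPM in sham. Sham replicate 3 was the highest library, and CB-100 replicate 3 lay above sham replicates 1 and 2. Fbxo32 averaged 21.7 ± 3.70 CPM in CB-100 (SD, n = 4), against 31.1 ± 9.39 in sham (SD, n = 3). The log2 change was -0.52 (SE 0.21, adjusted p = 0.18 by edgeR) and -0.25 without sham replicate 3. Its counts are uncertain, with non-whole values in 6 libraries and the antisense Gm15943 on its exons.

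**Figure D2:**
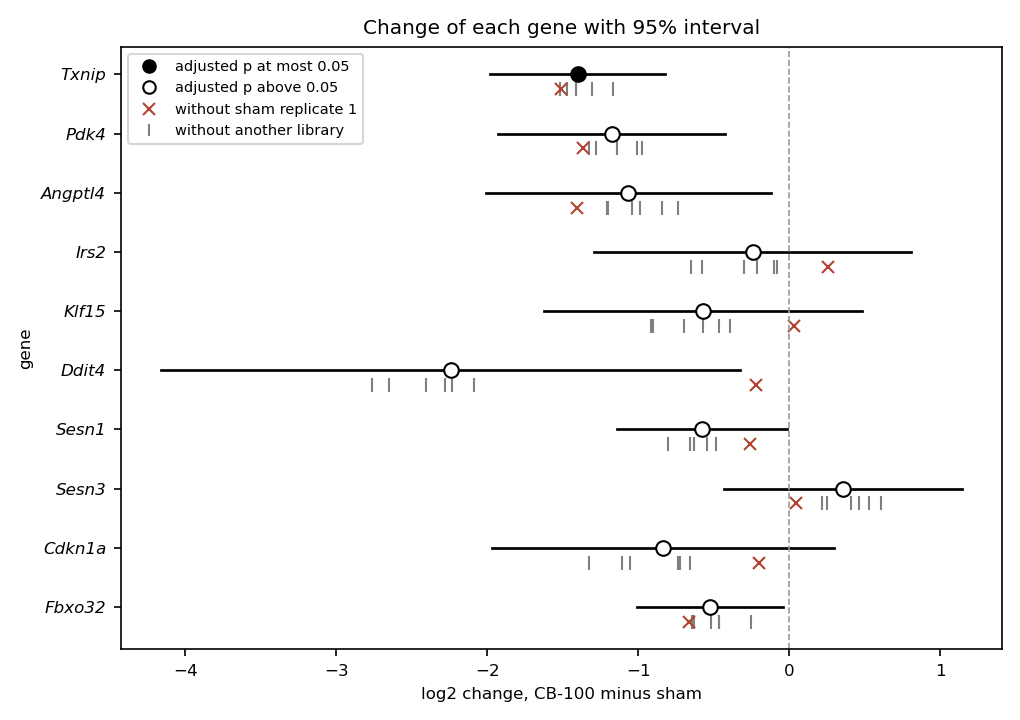
Log2 change (CB-100 minus sham) of each gene with its 95% interval (edgeR), filled where the adjusted p was at most 0.05. Marks under each interval are the estimates with 1 library left out, a cross for sham replicate 1. The Txnip estimates lie between -1.52 and -1.16, while Ddit4 moves to -0.22 and Irs2 to 0.25 without sham replicate 1.

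The sham libraries differed from one another in which of the genes were high. Sham replicate 1 was the highest of the 7 libraries for Irs2, Klf15, Ddit4, Sesn1 and Cdkn1a, and sham replicate 3 for Txnip, Pdk4, Angptl4 and Fbxo32. Sham replicate 2 was highest for none, and CB-100 replicate 2 was highest for Sesn3. CB-100 replicate 4 was the lowest library for 4 genes, Txnip, Pdk4, Angptl4 and Sesn1. Without CB-100 replicate 4 the Txnip estimate was -1.31 (adjusted p = 0.038 in edgeR, range over omissions 0.038 to 0.13), Pdk4 gave -0.98 and Angptl4 gave -0.84. Over the 10 genes, the mean log2 level against the CB-100 mean was -0.28 to 0.25 in the CB-100 libraries. In sham replicates 1, 2 and 3 it was 0.99, 0.39 and 0.72. The median over the genes put sham replicate 2, at 0.26, within the CB-100 range, whose highest value was 0.28.

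**Figure D3:**
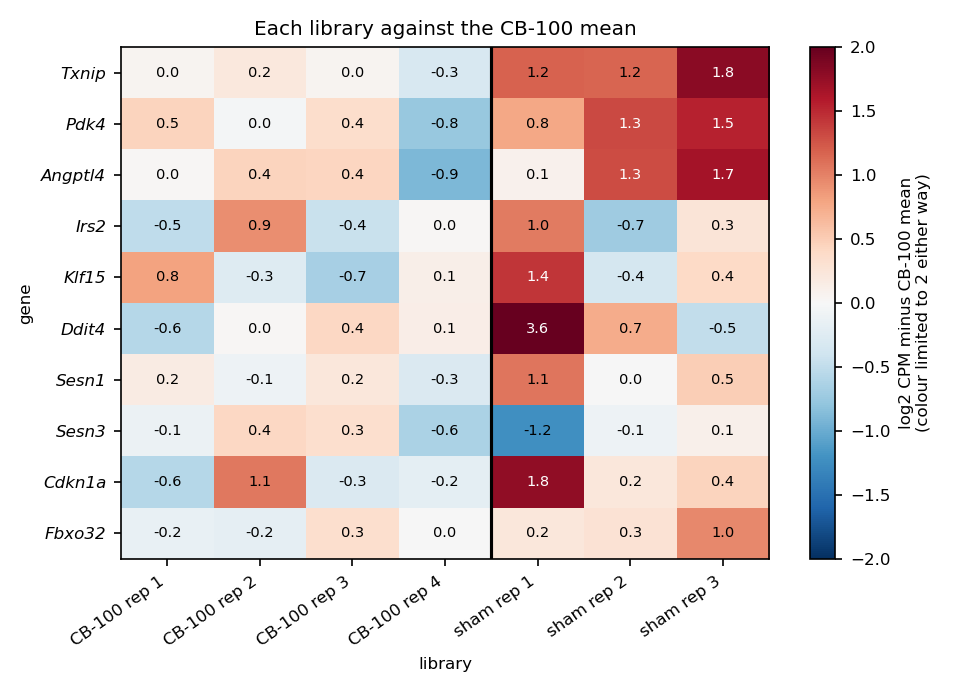
Log2 CPM of each gene (rows) in each library (columns) minus the CB-100 mean of that gene, red where higher and blue where lower. Sham replicate 1 is 3.599 above the CB-100 mean for Ddit4, 1.77 for Cdkn1a and 0.09 for Angptl4, whereas sham replicate 3 is 1.80 above for Txnip and 1.66 for Angptl4.

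The 2 male libraries gave a male pair, and the other 5 libraries were female. In the male pair Txnip stood at 860 CPM in CB-100, against 2908 CPM in sham, a log2 ratio of -1.76. In females its log2 change was -1.18 (SE 0.34), with an adjusted p of 0.22 in edgeR. Pdk4 gave -1.19 in the male pair and -1.11 in females (adjusted p = 0.30 in edgeR). Ddit4 went opposite ways, with 16.8 CPM in the male CB-100 library and 8.98 CPM in the male sham library, a log2 ratio of 0.90, against -2.91 in females. That female value leans on sham replicate 1, at 155 CPM beside 21.2 CPM in sham replicate 2, the other female sham library. In females alone edgeR called 0 of 17134 genes, with 2578 at an unadjusted p below 0.05, and no other tool was run on them.

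Levels between genes were compared per length, as RPKM computed on GENCODE M21 exon length. In CB-100 Pdk4 (272 ± 90.9 RPKM) and Txnip (269 ± 39.7 RPKM) were the most abundant and did not differ beyond their spread, and Angptl4 came next at 60.2 ± 22.1 RPKM (SD, n = 4 each). In sham the same genes stood at 613 ± 157, 710 ± 192 and 126 ± 60.2 RPKM (SD, n = 3 each). Irs2, Klf15 and Cdkn1a formed a middle range of 27.8, 16.9 and 13.5 RPKM in CB-100 and 32.8, 25.1 and 24.1 RPKM in sham, with neighbours within each other's spread. Ddit4 averaged 7.41 ± 1.96 RPKM in CB-100 (n = 4) and 35.1 ± 46.0 RPKM in sham (n = 3), which put it 7th in CB-100 and 4th in sham. Sesn1, Sesn3 and Fbxo32 were the lowest, between 3.10 and 3.89 RPKM in CB-100 and between 2.59 and 5.79 RPKM in sham.

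Relatives of the genes were chosen after values were seen. Pdk4 is 1 of 4 pyruvate dehydrogenase kinases, and another of them, Pdk1, passed the test. Pdk1, which hypoxia raises, gave a log2 change of -1.05 (SE 0.20, adjusted p = 0.034 by edgeR), with 12.8 ± 2.31 RPKM in CB-100, against 26.5 ± 4.94 RPKM in sham. Pdk2 stood at 75.5 ± 13.98 RPKM in CB-100 and 120 ± 16.8 RPKM in sham (log2 change -0.66, adjusted p = 0.090 in edgeR), and Pdk3 averaged 0.67 RPKM in CB-100, against 0.59 in sham. Like Pdk4, Pdk1 and Pdk2 were lower in each CB-100 library than in each sham library, beside 12.2% of all genes. Pdk4 held 74.4% ± 4.35 of the summed kinase RPKM in CB-100 and 80.2% ± 3.97 in sham, with overlapping ranges and an exact permutation p of 0.17, two-sided.

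Among 4 chosen alpha-arrestins, Txnip, Arrdc2, Arrdc3 and Arrdc4, Txnip made up 96.0% ± 1.21 of the summed RPKM in CB-100 and 97.9% ± 0.80 in sham (exact two-sided permutation p = 0.057). Other alpha-arrestins were left out of the sum. Arrdc4, which like Txnip is raised by glucose through MondoA and ChREBP, gave an estimate on the other side of 0, with 2.33 ± 0.80 RPKM in CB-100 and 1.75 ± 0.55 RPKM in sham (log2 change 0.42 with SE 0.31, adjusted p = 0.43 by edgeR). Arrdc2 and Arrdc3 gave -0.52 and -0.58, and neither passed. Irs1 gave 0.18 (SE 0.29) beside -0.24 for Irs2, with an adjusted p of 0.75 in edgeR for Irs1. Sesn2, the sestrin that amino acid shortage raises, gave -0.16 (SE 0.54) and varied from 1.64 to 9.86 RPKM among the sham libraries. Cdkn1b, a cell cycle inhibitor that is also a FOXO target, gave -0.14 (SE 0.12) and Cdkn1c 0.52 (SE 0.62), and none of these 3 passed. Trim63, the other wasting ubiquitin ligase, averaged 0.53 ± 0.78 RPKM in CB-100 and 2.11 ± 0.51 RPKM in sham (log2 change -2.01 with SE 0.88, adjusted p = 0.21 by edgeR).

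**Figure D4:**
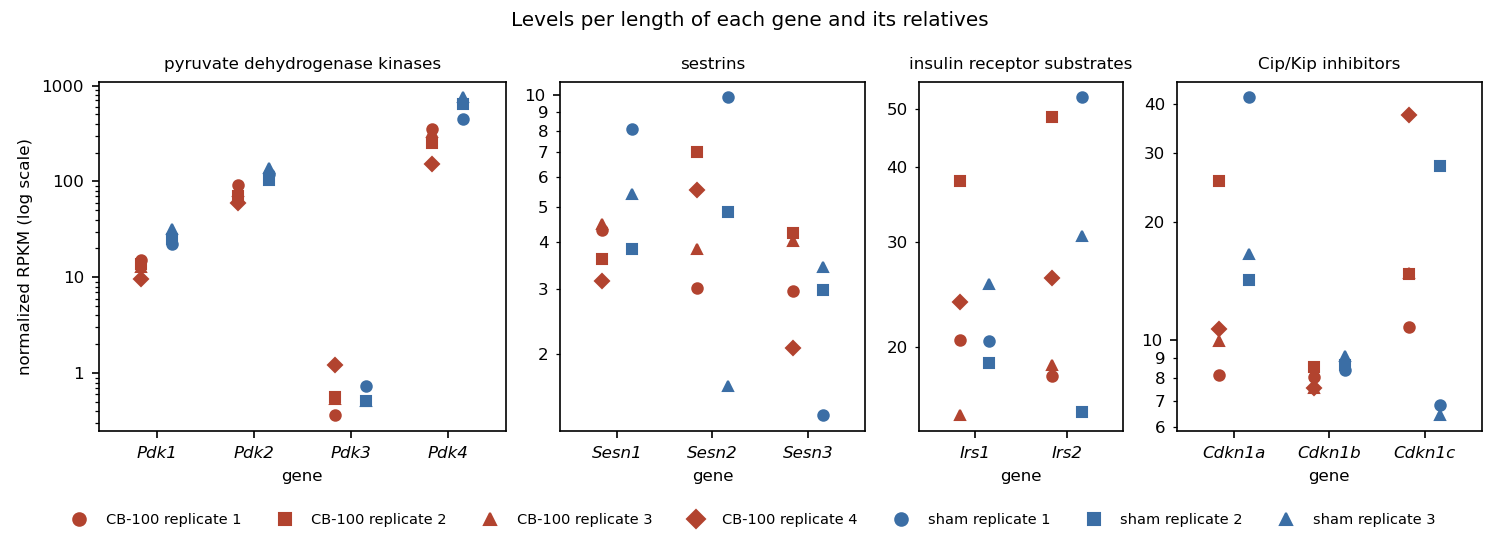
Normalized RPKM on a log axis of Pdk, sestrin, insulin receptor substrate and Cip/Kip genes in each library, CB-100 in red to the left of sham in blue. Pdk1, Pdk2 and Pdk4 lie lower in each CB-100 library than in each sham library, which 12.2% of all genes tested do. Pdk3 and the sestrins overlap.

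Skeletal muscle markers varied between libraries, and Fbxo32 and Klf15 are well known from muscle. The 15 muscle markers summed to 341 to 2594 CPM in CB-100, highest in replicate 3, and to 946 to 2069 CPM in sham (exact two-sided permutation p = 0.43). None of the 15 passed, and 12 estimates were below 0. With a muscle score as covariate Pdk4 gave -1.07 and Txnip -1.38 (adjusted p = 0.14 in edgeR, range over alternatives 2.5e-07 to 0.22). Adipocyte markers (10 genes) summed to 5959 to 7037 CPM in CB-100, against 8255 to 11860 CPM in sham, without overlap (exact two-sided permutation p = 0.029, the smallest that 35 splits allow, and 0.13 after Benjamini-Hochberg adjustment over 9 marker lists). With each adipocyte marker counted equally, as a mean log2 level against the CB-100 mean, the groups overlapped. Sham replicate 1 was then at -0.36 and sham replicates 2 and 3 at 0.68, against -0.31 to 0.22 in CB-100. Of the 10 estimates, 7 were below 0 and 3 above. Fibroblast and preadipocyte markers summed to 923 to 1976 CPM in CB-100, against 386 to 889 CPM in sham (exact two-sided permutation p = 0.086). Schwann cell markers, 6 genes, also did not overlap, with 128 to 157 CPM in CB-100, against 69.5 to 82.1 CPM in sham. Their exact two-sided permutation p was 0.029 as well, and 0.13 after the same adjustment. Brown adipocyte markers (11 genes) summed to 1995 to 4293 CPM in CB-100, against 1732 to 2715 CPM in sham (exact two-sided permutation p = 0.11). Within that sum Ucp1 alone averaged 1402 CPM in CB-100, against 354 CPM in sham, and of the 11 estimates 5 were below 0 and 6 above. The part of these markers, and of the mitochondrial share, in the results on the 10 genes was not tested, other than by the muscle score.

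Other genes of the same regulators were taken from lists without the 10 genes. Each list count of called genes below stands beside the shares over all genes tested, 2.28% called lower and 1.42% called higher. Counts at an unadjusted p below 0.05 stand beside 2046 lower (12.2%) and 1976 higher of the 16823 genes tested. Estimates below 0 made up 47.3% of all genes tested, and their overall median was 0.03. Of 28 tested FOXO factors and targets, 3 fell and 0 rose. The median of their log2 changes was -0.35, with 22 of them below 0. Cited2, a transcriptional cofactor, fell by 1.89 (SE 0.31, adjusted p = 0.027 by edgeR), with 8.42 to 12.8 CPM in CB-100, against 26.4 to 61.2 CPM in sham. Bnip3, a mitophagy receptor, fell by 1.34 and Cat, the catalase, by 0.98, and Bnip3 is uncertain for an antisense gene model and non-whole counts. Without sham replicate 1, which was the 1 omission run for the lists, Fkbp5 alone of all the list genes named here stayed called, and edgeR called 14 genes in all. The log2 changes of the genes whose call was lost were then -2.11 for Cited2, -1.25 for Bnip3, -1.04 for Cat, -1.51 for Txn1 and 4.88 for Scd1, among others. Fkbp5 itself went to -1.61 (adjusted p = 0.042 in edgeR), and the FOXO median was -0.31.

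Among 29 PPAR factors and targets 1 fell and 0 rose, with 24 estimates below 0, beside 2.28% of all genes called lower and 47.3% below 0. The PPAR median was -0.29, and leaving out sham replicate 1 made it -0.49. The called gene was Cyp4a14, a fatty acid hydroxylase, with 0 to 0.27 CPM in CB-100 (0 to 3 counts per library), against 1.198 to 1.69 CPM in sham. In the glucocorticoid list 2 of 15 fell and 0 rose, with a median of -0.83, or -0.43 without sham replicate 1. Fkbp5, a chaperone of the glucocorticoid receptor, stood at 7.62 to 11.3 CPM in CB-100, against 113, 27.3 and 30.5 CPM in sham replicates 1 to 3 (log2 change -2.59 with SE 0.49, adjusted p = 0.037 by edgeR). Of the 4 members that glucocorticoids raise, sham replicate 1 was the highest library in Ddit4 and Klf15, as in Fkbp5, and the lowest sham library in Pdk4 and Angptl4. Mt1, a metallothionein, fell by 0.92. The mean log2 level of the glucocorticoid list in sham replicate 1 was 1.07 above the CB-100 mean, against 0.38 and 0.08 in sham replicates 2 and 3 and -0.33 to 0.49 in the CB-100 libraries.

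Of 17 other p53 targets 1 fell and 0 rose, with a median of -0.07. That gene was Trp53inp1, a stress protein that p53 and FOXO factors raise, with 22.8 to 36.5 CPM in CB-100, against 242, 61.2 and 244 CPM in sham (log2 change -2.54 with SE 0.44, adjusted p = 0.033 by edgeR). Of 14 hypoxia targets 2 fell, Bnip3 and Pdk1, and 0 rose, with a median of -0.05. In the list of MondoA, ChREBP and their targets none of 13 passed (3 lower and 1 higher at an unadjusted p below 0.05 in edgeR) and the median was -0.08, or -0.05 without sham replicate 1. Its member with the smallest p was Me1, the malic enzyme of fat synthesis (log2 change 1.26, adjusted p = 0.058 in edgeR), uncertain for an antisense gene model.

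**Figure D5:**
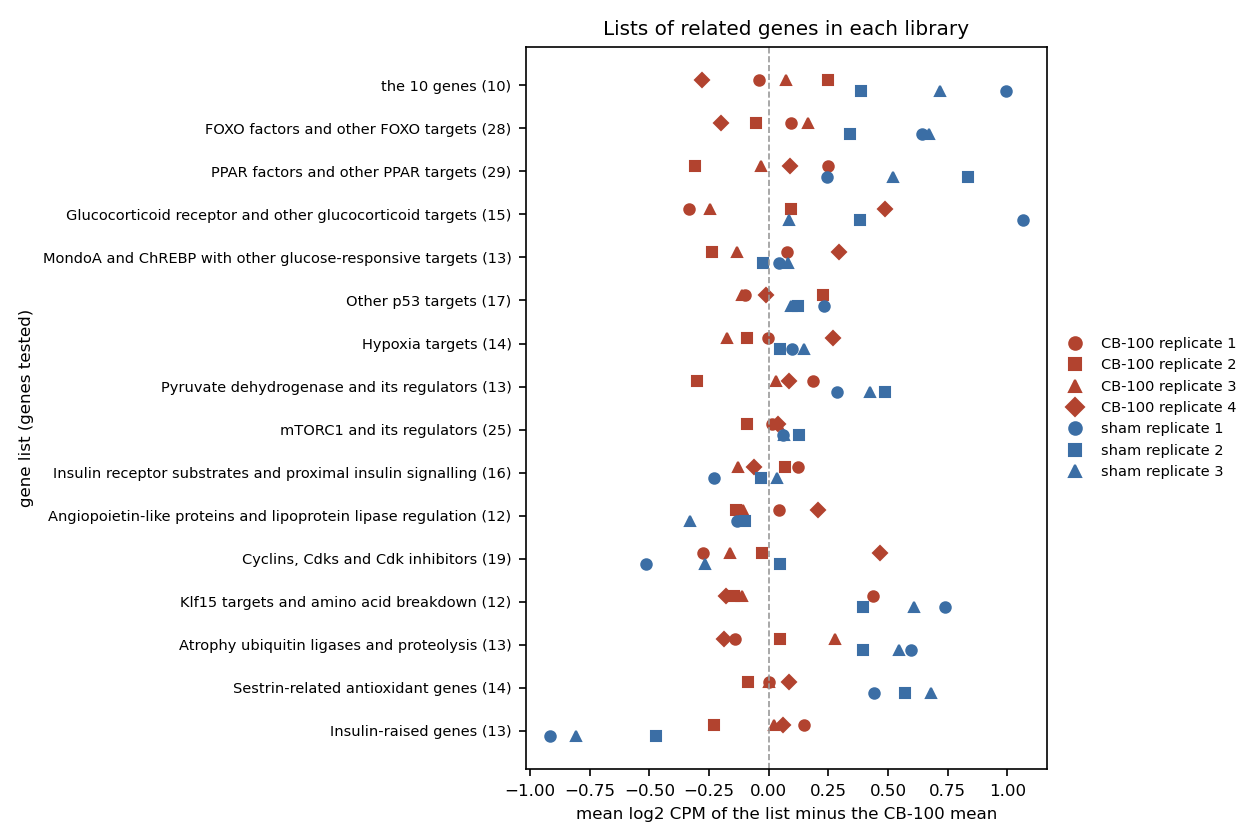
Mean log2 CPM of each gene list in each library minus the CB-100 mean of that list, CB-100 in red and sham in blue. Sham replicate 1 is the highest library in the glucocorticoid list at 1.07 and in the 10 genes at 0.99, and the insulin-raised list lies between -0.92 and -0.47 in sham.

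Around the proteins the genes act on, the pyruvate dehydrogenase list had 1 of 13 lower, Pdk1, and 0 higher, with 11 estimates below 0 and a median of -0.42. The antioxidant genes that sestrins and Txnip work with had 4 of 14 lower and 0 higher, and a median of -0.51. Txn1, the thioredoxin that Txnip binds, fell by 1.41 (SE 0.18, adjusted p = 0.020 by edgeR), with 19.0 to 28.2 CPM in CB-100, against 51.3 to 70.5 CPM in sham. Prdx2 and Prdx1, peroxiredoxins, fell by 0.96 and 0.91, and Prdx2 overlaps opposite genes. The fourth was Gclc, of glutathione synthesis, which fell by 0.68 and was named after its value was seen. In edgeR none of 25 mTORC1 genes passed (median -0.06). At an unadjusted p below 0.05, 3 of them were lower and 1 higher, beside 12.2% lower over all genes. The smallest p was that of Seh1l, of the amino acid sensing GATOR complex (log2 change -0.51, adjusted p = 0.066 in edgeR). None of 16 proximal insulin signalling genes passed in edgeR (median -0.02, or -0.03 without sham replicate 1, 0 lower and 1 higher at an unadjusted p below 0.05). That gene was Pik3cb, a phosphoinositide kinase subunit (0.56, adjusted p = 0.19 in edgeR).

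Of 12 angiopoietin-like and lipoprotein lipase genes none passed in edgeR, the median was 0.27, and 1 was lower and 1 higher at an unadjusted p below 0.05. The higher one was Angptl8, which insulin and feeding raise, with 8.86 to 15.8 CPM in CB-100, against 2.21 to 8.31 CPM in sham (log2 change 1.36, adjusted p = 0.11 in edgeR). In the cell cycle list none of 19 passed in edgeR (median -0.02, or -0.03 without sham replicate 1, 1 lower and 3 higher at an unadjusted p below 0.05), led by Ccnd1, cyclin D1 (log2 change 2.45, adjusted p = 0.12 in edgeR, with an overlapping opposite gene). In the list of Klf15 targets and amino acid breakdown none of 12 genes passed in edgeR, with a median of -0.60. At an unadjusted p below 0.05, 5 of them were lower, beside 12.2% of all genes. The smallest p was that of Slc43a1, an amino acid transporter (log2 change -1.45, adjusted p = 0.081 in edgeR). None of 13 atrophy and proteolysis genes passed in edgeR, and 4 were lower at an unadjusted p below 0.05. The median over the 13 was -0.21, and -0.11 once sham replicate 1 was left out. Fbxo31, another F-box gene, gave -1.22 (adjusted p = 0.075 in edgeR).

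Genes that insulin raises had 3 of 13 higher and 0 lower, and a median of 0.40, beside 1.42% higher over all genes. The list shares Fasn, Acaca, Acly, Elovl6 and Me1 with that of MondoA, ChREBP and their targets. Estimates were below 0 for 4 of the 13. Those were Acacb (-0.53), Acly (-0.39), Acaca (-0.37) and Thrsp (-0.31), named after their values were seen, and none of them passed in edgeR. The 3 called were Scd1, a fatty acid desaturase, Pnpla3, a lipid droplet hydrolase, and Srebf1, the transcription factor of fat synthesis. Srebf1 stood at 221 to 290 CPM in CB-100, against 149 to 169 CPM in sham (log2 change 0.74 with SE 0.16, adjusted p = 0.046 by edgeR). Scd1 gave 4.42 and Pnpla3 gave 1.90, and each of these 3 counts is uncertain for overlapping genes or non-whole values. The median was 0.52 without sham replicate 1. Over all lists together, 239 distinct genes were tested, of which 12 fell and 3 rose, with a median log2 change of -0.14. Beside this, 2.28% of all genes tested were called lower and 1.42% higher, with a median of 0.03.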

How the data were processed

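Brown fat RNA of 7 NOD/ShiLtJ mice was read on an Illumina NovaSeq. Per the labels' protocols, STAR 2.7.9a placed the reads on Ensembl's primary assembly (release 101). Tools listed without a role in the submitters' processing notes are limma, edgeR, Salmon 1.5.2 and Subread with featureCounts 2.0.3. How reads were counted, and whether by strand, is not given in the sources used here. Values are expected counts per gene in a single table that the authors deposited without normalization. Of its 55774 lines, 287 repeats were removed, and counts were rounded.

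Genes passing filterByExpr were scaled by TMM (factors 0.755 to 1.25) and tested with edgeR 4.0.16 in R 4.3.3 (robust glmQLFit and glmQLFTest, two-sided, group as the sole term) with Benjamini-Hochberg adjustment and a threshold of 0.05. The SE is the log2 change over the square root of F, and the 95% interval uses the fit's degrees of freedom. Log2 CPM used a prior count of 2. Libraries held 10815101 to 28528471 counts, and each group holds 3 or 4 mice. Replicate numbers follow sample order and pair nothing. Nothing beyond animal codes says that replicates are separate mice, so a p-value covers only how these samples vary, which may be technical. No pair of libraries matched within sampling noise. Alternatives were DESeq2 1.42.0, limma 3.58.1 voom with quality weights, other scalings and filters, covariates, and each library left out. The test was checked on simulated data. Coordinates and exon lengths are from GENCODE M21, promoters from RefSeq.

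The genes and lists were chosen with earlier results of these data known. Genes named are the 10 members and, per list, up to 3 called genes with the largest change or else the 1 with the smallest p. Marker lists are given as sums, and those of macrophages, lymphocytes, endothelium and red blood cells summed to 99.2 to 236, 4.36 to 6.85, 753 to 1588 and 879 to 4544 CPM in CB-100 and to 112 to 176, 3.53 to 7.49, 599 to 939 and 787 to 2201 CPM in sham. None of these 4 passed (exact two-sided permutation p of 0.49 to 0.91).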

Additional observations from a re-analysis of the deposited data

Results flagged for a closer look

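Among 19 measures tested for a library far from its CB-100 group (the 10 genes and 9 marker sums), 4 were flagged. Chance flags about 1 in 20 where values are normally distributed, which was not tested for these CPM values. The sham libraries were not put through this test. Cdkn1a stood at 90.1 CPM in CB-100 replicate 2, against 28.98 to 37.9 CPM in the other CB-100 libraries. Skeletal muscle markers summed to 2594 CPM in CB-100 replicate 3, against 341 to 500 CPM in the others. In CB-100 replicate 4 endothelial markers summed to 1588 CPM, against 753 to 850 CPM in the others, and red blood cell markers to 4544 CPM, against 879 to 1123 CPM.

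The Ddit4 difference between CB-100 and sham ran opposite ways in the sexes. Its log2 ratio was 0.90 in the male pair, while each of the 3 female CB-100 libraries lay below both female sham libraries. Those sham libraries held 155 CPM (replicate 1) and 21.2 CPM (replicate 2). Without sham replicate 1 the Ddit4 estimate over both sexes was -0.22. In a model with the interaction of sex and group, a choice made after seeing the data, the difference between the sexes was 3.81 on the log2 scale, with sham replicate 1 included. It had an unadjusted p of 0.026 and did not pass (edgeR adjusted p = 1), and with 1 male a group the male value has no replicate.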

How the results depend on the processing

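The number of genes called, 622, was 645 with DESeq2 size factors, 606 with upper quartile scaling and 694 with a filter of 1 CPM in 3 libraries. It was 1968 with DESeq2, 1150 with limma voom and library quality weights, 1860 at a threshold of 0.1, 914 with no filter, 238 with sex as covariate, 9 with a skeletal muscle score and 0 in females only. Leaving out 1 library gave 8 to 610. Of the 10 genes, 2 were called lower (Txnip and Pdk4) with no filter, DESeq2, weighted limma voom or a threshold of 0.1, and 0 in females only, with sex or with the muscle score as covariate. In either direction, 2.87% of all genes tested were called with no filter and 11.7% with DESeq2. Weighted limma voom called 6.84% and a threshold of 0.1 called 11.1%, against 3.7% in the main setting. Leaving out 1 library gave 0 to 1. None was called higher in any setting. The Irs2 and Klf15 estimates were 0.25 and 0.0303 without sham replicate 1, with lowest values over the omissions of -0.65 and -0.91. The median over the 10 genes was -0.94 to -0.24 over the omissions, and its cause was not tested. No paired analysis was possible because the animal codes are not shared between the groups. Whether depth or the number of mice limits these results was not tested.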
